A study of Mus musculus with 24 samples.

Results

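Follicular helper T (TFH) cells were set against conventional CD4 T (Tconv) cells from control mice, across all genes. The comparison uses 6 of the 24 RNA-seq libraries of the series, 3 of control TFH cells and 3 of control Tconv cells, chosen by their labels and not by any measured value. The mice were female NZBWF1/j, an F1 hybrid that develops a lupus-like disease with age. The control mice received PBS once a week for 3 weeks from 23 weeks of age, and cells were collected at week 26. TFH cells were sorted as CD4+ CXCR5+ PD1Hi with absent or low GITR, and Tconv cells as CD4+ CXCR5- GITR-. The treated mice, used only in the last comparison, received OX40L and JAG1 (2 mg/kg each, intraperitoneally) on the same schedule. All groups are of this one disease-prone strain, and the labels do not say whether the 3 libraries of a group came from separate mice, so the p-values measure only the spread between libraries, which may be technical.

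TFH cells are the CD4 T cells that enter B cell follicles and help B cells in the germinal centre. The repressor BCL6 directs their programme, CXCR5 guides them to the follicle, and CD40 ligand, ICOS and the cytokine IL-21 carry the help. In lupus-prone mice TFH cells are known for helping B cells that make autoantibodies.

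The libraries were not alike in depth or content. The TFH libraries held 5740329, 2537901 and 15234765 counted reads, and the Tconv libraries 24698544, 27493277 and 33185433. Thinned to 2537901 reads each, TFH libraries showed 11775 ± 1429 genes and Tconv libraries 16742 ± 1527 (SD, n = 3 each). By library this was 11940, 10271 and 13114 genes in TFH cells, against 17631, 17616 and 14979 genes in Tconv cells. Mitochondrially encoded genes took 15.97 ± 0.921% of TFH reads and 10.3 ± 0.946% of Tconv reads. Summed over 11 podocyte markers (kidney filter cells), the level was 69.2, 41.3 and 54.5 CPM (counts scaled to a common library size by TMM) in TFH cells, against 1516, 1489 and 13.2 CPM in Tconv cells. Over 14 proximal tubule markers the sums were 1.04, 0.773 and 31.4 CPM in TFH cells and 999.7, 1054 and 1.24 CPM in Tconv cells. Tconv libraries 1 and 2 thus carried kidney transcripts that Tconv library 3 lacked. Each result below was therefore also computed without Tconv 1 and 2, where Tconv 3 stands alone and is assumed to vary like the other groups.

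Cxcr5 and Pdcd1 differed in the direction of the gates, and Tnfrsf18, also a gate gene, did not separate the groups. Cxcr5 was at 121, 143 and 98.5 CPM in TFH cells, against 2.504, 2.18 and 0.824 CPM in Tconv cells, and Pdcd1, which encodes PD-1, at 269.98, 282 and 305 CPM in TFH cells, against 4.41, 3.82 and 7.29 CPM in Tconv cells. Tnfrsf18, which encodes GITR, was at 91.96, 69.2 and 86.5 CPM in TFH cells, against 66.2, 61.4 and 85.4 CPM in Tconv cells, and its groups overlap. These 3 genes were part of the sort and their difference is no finding. Cd4 was at 541, 586 and 499 CPM in TFH cells, against 354, 361 and 451 CPM in Tconv cells (log2 fold change 0.48 ± 0.10 (SE), edgeR adjusted p = 0.00096), and its difference was 0.26 without Tconv 1 and 2 (adjusted p = 0.21). Cd3e, a chain of the receptor by which T cells see antigen, was at 291, 243 and 279 CPM in TFH cells, against 208, 209.7 and 269 CPM in Tconv cells (log2 fold change 0.25 ± 0.10 (SE), edgeR adjusted p = 0.084). Cd3e had a difference of 0.01 without Tconv 1 and 2, and both genes were present in all 6 libraries. In bulk samples such as these, fewer cells of a type and less RNA per cell cannot be told apart.

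Of 18789 genes tested, 1858 were higher in TFH cells, 9.89% of all, and 2843 were lower, 15.1%, at an edgeR adjusted p under 0.05. The median log2 fold change over all genes was -0.31. Without Tconv 1 and 2 it was -0.05 for these genes. In a fit of genes with a mean of at least 10 CPM it was -0.012. The medians below are best read with these values in mind, and those of abundant genes with the last. Without Tconv 1 and 2, 888 of 21617 genes were higher (4.11%) and 1298 lower (6%). In the 6 libraries fitted alone, 608 of 13850 genes were higher (4.39%) and 1039 lower (7.5%). Of the 1858 higher genes, 788 (42.4%) were called again without Tconv 1 and 2, and of the 2843 lower genes 1273 (44.8%). Among the lower genes, 368 stood in Tconv 3 below 1/5 of their mean in Tconv 1 and 2, and 7 of these remained lower against Tconv 3. Of all lower genes, 89 had the opposite sign without Tconv 1 and 2. Of all lower genes 1255 had no read in any TFH library, and 20 of these had at least 5 CPM in Tconv 3. Of all 18789 tested genes, 4115 had no read in any TFH library, and 216 had none in any Tconv library. The counts without overlap between the groups were 1771 genes with TFH cells above (9.43%) and 4803 with TFH cells below (25.6%).

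**Figure D1:**
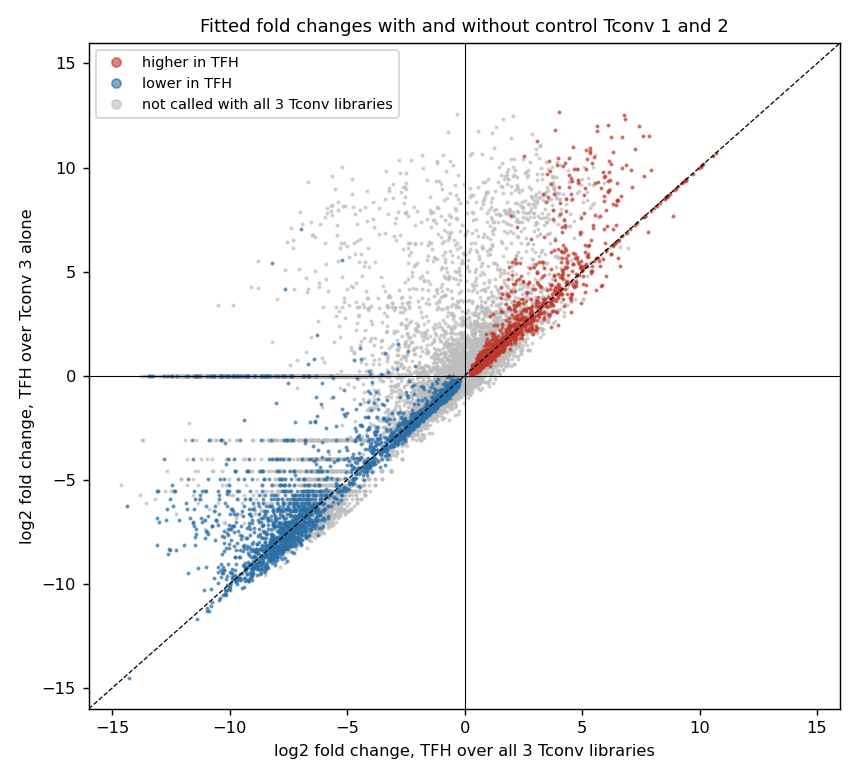
Each point is a gene tested in both fits, with its log2 fold change of TFH over Tconv cells in all libraries on the x axis and without Tconv 1 and 2 on the y axis. The dashed line marks equal values, and blue points above it are genes that fell by less, or not at all, without Tconv 1 and 2. Fitted folds of genes with no read in a group depend on the prior count.

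Of the 17 tested transcription factors known for TFH cells, 11 rose and 3 fell (list median log2 fold change 1.68); without Tconv 1 and 2, 11 rose and 2 fell. Bcl6 (ENSMUSG00000022508.5, chromosome 16, 23965052 to 23988852; mm10, GENCODE M21), the repressor that defines the lineage, was at 215, 233 and 175 CPM in TFH cells, against 47.1, 51.2 and 57.6 CPM in Tconv cells (log2 fold change 1.997 ± 0.12 (SE), edgeR adjusted p = 7.1e-11). Every TFH library stood above every Tconv library. Tox2 (ENSMUSG00000074607.11, chromosome 2, 163203125 to 163324170), an HMG-box factor that acts with BCL6, was at 125, 198 and 168 CPM in TFH cells, against 1.91, 2.07 and 2.12 CPM in Tconv cells (log2 fold change 6.32 ± 0.24 (SE), edgeR adjusted p = 1.7e-14). Its fold change was the largest of the named factors, and its level was low in each Tconv library. Maf (ENSMUSG00000055435.6, chromosome 8, 115682942 to 115707794), which drives Il21 transcription, was at 286, 339 and 356 CPM in TFH cells, against 49.01, 57.9 and 18.1 CPM in Tconv cells (log2 fold change 2.98 ± 0.26 (SE), edgeR adjusted p = 1.5e-08; 4.17 without Tconv 1 and 2). Bhlhe40, a basic helix-loop-helix repressor, was at 566, 419.97 and 458 CPM in TFH cells, against 51.5, 48.1 and 41.5 CPM in Tconv cells (log2 fold change 3.36 ± 0.13 (SE), edgeR adjusted p = 3.7e-14). Both genes kept the groups apart in all libraries.

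Other members of the list rose by less than Bcl6. Irf4, needed for effector T cell differentiation, was at 329, 231 and 388 CPM in TFH cells, against 73.7, 81.002 and 94.4 CPM in Tconv cells (log2 fold change 1.93 ± 0.15 (SE), edgeR adjusted p = 2.3e-09), and its AP-1 partner Batf at 73.9, 84.2 and 55.8 CPM in TFH cells, against 26.7, 26.7 and 25.4 CPM in Tconv cells (log2 fold change 1.43 ± 0.14 (SE), edgeR adjusted p = 1.3e-07). Tox rose by 1.84 ± 0.12 and Nfatc1, a calcium-activated factor of T cell receptor signalling, by 1.86 ± 0.10 on the log2 scale. Pou2af1, a coactivator of octamer-binding factors, rose by 1.68 ± 0.23, and Stat3, which carries IL-6 and IL-21 signals, by 1.16 ± 0.09. Groups did not overlap for any of these 6 genes.

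The members that fell were Tcf7, Lef1 and Id3. Tcf7 encodes TCF-1, shared by naive and TFH cells, and was at 833, 688 and 804 CPM in TFH cells, against 1156, 1176 and 1448 CPM in Tconv cells (log2 fold change -0.70 ± 0.10 (SE), edgeR adjusted p = 1.4e-05). Lef1, its close relative, was at 223, 114 and 166 CPM in TFH cells, against 810.002, 832 and 1021 CPM in Tconv cells (log2 fold change -2.395 ± 0.17 (SE), edgeR adjusted p = 9.8e-10). Id3, an inhibitor of E proteins, was at 29.4, 35.9 and 26.2 CPM in TFH cells, against 68.01, 62.6 and 40.2 CPM in Tconv cells (log2 fold change -0.91 ± 0.30 (SE), edgeR adjusted p = 0.032), and its difference was -0.41 without Tconv 1 and 2 (adjusted p = 0.64). Ascl2, which induces Cxcr5 in mouse T cells, was at 1.74, 1.55 and 0 CPM in TFH cells, against 0.477, 0.178 and 0 CPM in Tconv cells and did not pass the test (adjusted p = 0.33).

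**Figure D2:**
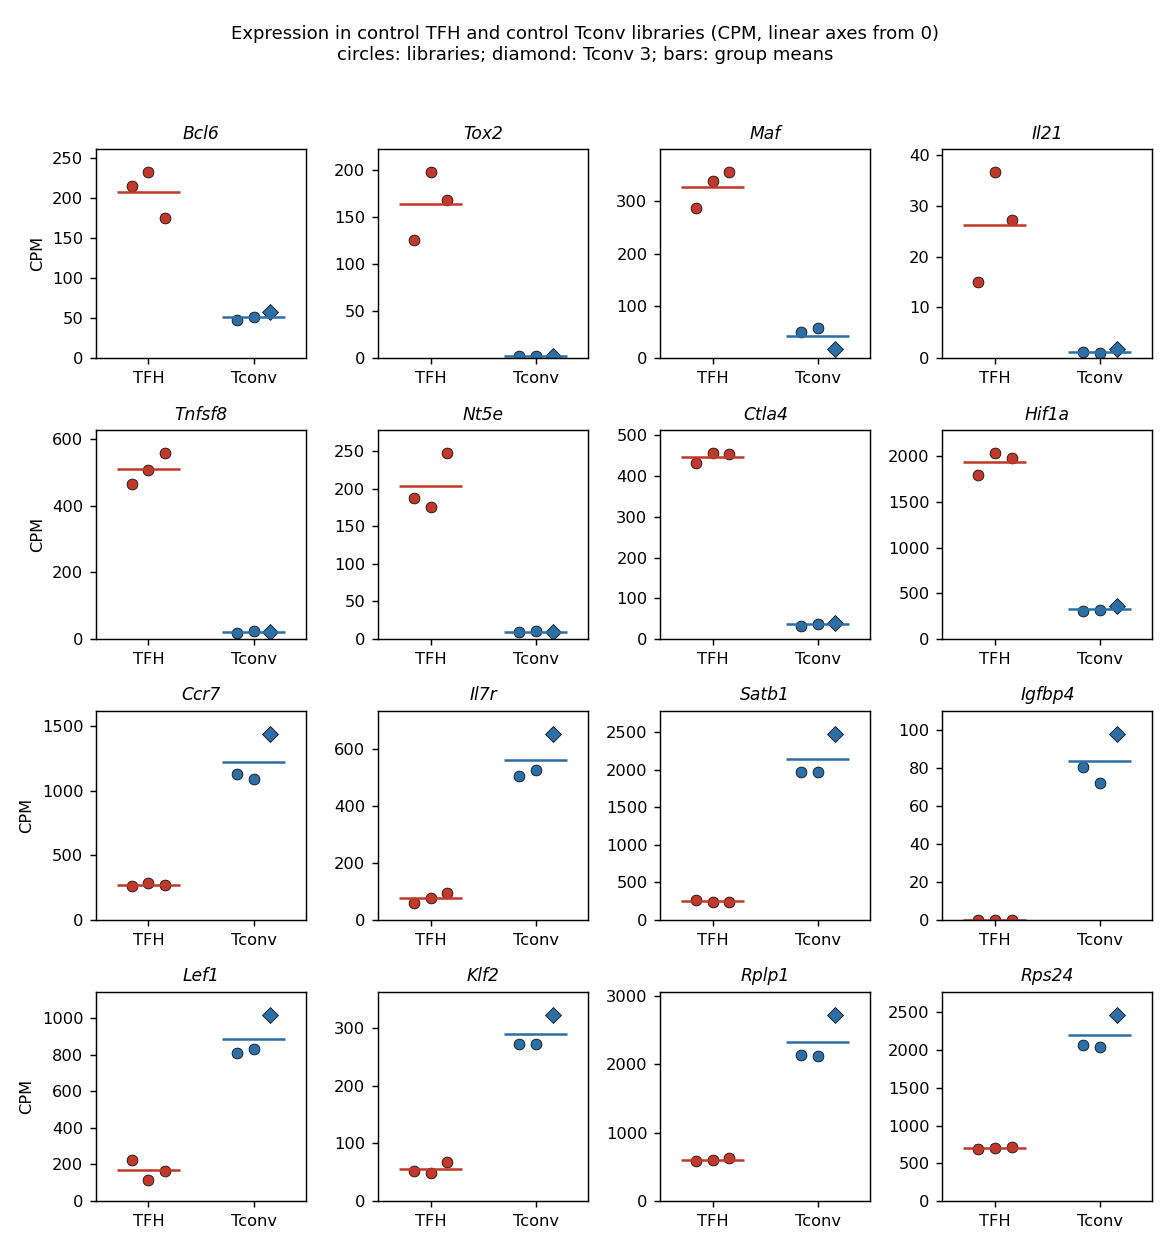
CPM on linear axes from 0 for 16 genes, with TFH libraries left and Tconv libraries right in each panel; circles are libraries, the diamond is Tconv 3 and the bar is the mean of 3. In every panel the TFH libraries lie on one side of all Tconv libraries.

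Among receptors and mediators of help for B cells, 21 rose and 1 fell of 27 tested (list median 1.84); without Tconv 1 and 2, 17 rose and 1 fell. Il21 (ENSMUSG00000027718.8, chromosome 3, 37222759 to 37232636), the cytokine of TFH help, was at 14.95, 36.7 and 27.2 CPM in TFH cells, against 1.15, 0.963 and 1.71 CPM in Tconv cells (log2 fold change 4.35 ± 0.37 (SE), edgeR adjusted p = 1.3e-08). Every TFH library lay above every Tconv library. Icos, the co-stimulatory receptor needed to keep TFH cells, was at 536, 580.3 and 609 CPM in TFH cells, against 173, 182 and 239 CPM in Tconv cells (log2 fold change 1.54 ± 0.11 (SE), edgeR adjusted p = 1.5e-09). Cd40lg, the ligand that activates B cells through CD40, was at 79.4, 33.6 and 60.8 CPM in TFH cells, against 35.1, 31.3 and 36.6 CPM in Tconv cells (log2 fold change 0.77 ± 0.20 (SE), edgeR adjusted p = 0.0075), and its difference was 0.67 without Tconv 1 and 2 (adjusted p = 0.18). TFH library 2 lay between Tconv values, so its groups overlap. Il4, the other classical TFH cytokine, was at 2.26, 0 and 2.59 CPM in TFH cells, against 0, 0.714 and 0 CPM in Tconv cells and did not pass the test (adjusted p = 0.11). It passed without Tconv 1 and 2 (adjusted p = 0.025), without Tconv 2 alone and with DESeq2; Tconv 2 held the Tconv reads, so the fitted change without it is not given.

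Ligands of the TNF family rose as well. Tnfsf8 (ENSMUSG00000028362.2, chromosome 4, 63831308 to 63861347), which encodes CD30 ligand, was at 464, 506 and 558 CPM in TFH cells, against 18.7, 24.3 and 22.6 CPM in Tconv cells (log2 fold change 4.54 ± 0.13 (SE), edgeR adjusted p = 1.3e-16). Tnfsf11, which encodes RANK ligand, was at 63.3, 31.7 and 75.1 CPM in TFH cells, against 3.66, 3.82 and 3.04 CPM in Tconv cells (log2 fold change 4.03 ± 0.28 (SE), edgeR adjusted p = 5.4e-10). The TFH and Tconv libraries were separated by a wide gap for both. Rgs16, a brake on chemokine receptor signals, was at 356, 403 and 369.9 CPM in TFH cells, against 9.98, 6.96 and 8.18 CPM in Tconv cells (log2 fold change 5.49 ± 0.15 (SE), edgeR adjusted p = 1.3e-16). Penk, the enkephalin precursor, was at 57.02, 114 and 54.3 CPM in TFH cells, against 2.94, 1.499 and 0.349 CPM in Tconv cells (log2 fold change 5.57 ± 0.42 (SE), edgeR adjusted p = 1.8e-09; 7.703 without Tconv 1 and 2). Exons of Rgs16, Penk and Il21, and of Lef1, Sh2d1a, Tnfrsf18, Cd274 and Il4ra named elsewhere, overlap a gene on the opposite strand, so their counts are less certain.

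Adhesion and signalling receptors of T cell and B cell contact followed at lower folds. Slamf6, a self-binding receptor, was at 224, 131 and 259 CPM in TFH cells, against 51.6, 49.9 and 57.4 CPM in Tconv cells (log2 fold change 1.96 ± 0.15 (SE), edgeR adjusted p = 3.8e-09). Its adaptor Sh2d1a, which encodes SAP, was at 44.3, 119.8 and 73.1 CPM in TFH cells, against 26.9, 30.01 and 37.8 CPM in Tconv cells (log2 fold change 1.31 ± 0.22 (SE), edgeR adjusted p = 0.00016). P2rx7, an ATP-gated channel that limits TFH cell numbers in mouse gut, was at 39.1, 32.5 and 39.5 CPM in TFH cells, against 8.63, 9.92 and 10.8 CPM in Tconv cells (log2 fold change 1.92 ± 0.16 (SE), edgeR adjusted p = 1.0e-08). Il6st, the shared gp130 chain of the IL-6 receptor, rose by 0.84 ± 0.10 on the log2 scale. Il21r was the member that fell, with 96.3, 80.4 and 56.3 CPM in TFH cells, against 209.9, 206 and 265 CPM in Tconv cells (log2 fold change -1.56 ± 0.16 (SE), edgeR adjusted p = 1.9e-07). Its ligand and receptor transcripts thus differed in opposite directions.

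Of 19 co-inhibitory receptors and related enzymes, 13 rose and 2 fell (list median 1.49); without Tconv 1 and 2, 10 rose and 1 fell. Ctla4 (ENSMUSG00000026011.13, chromosome 1, 60887000 to 60915832), which takes CD80 and CD86 from partner cells, was at 432, 457 and 453 CPM in TFH cells, against 32.1, 36.04 and 39.2 CPM in Tconv cells (log2 fold change 3.64 ± 0.10 (SE), edgeR adjusted p = 1.0e-16). The TFH libraries differed from each other by little, and none came near a Tconv library. The sort gene Pdcd1 is among the members that rose in this list and the one before it. Nt5e (ENSMUSG00000032420.8, chromosome 9, 88327197 to 88372092), which encodes the ectoenzyme CD73, was at 188, 175 and 248 CPM in TFH cells, against 9.699, 11.03 and 9.19 CPM in Tconv cells (log2 fold change 4.36 ± 0.13 (SE), edgeR adjusted p = 3.3e-16). Tigit, a receptor for CD155, was at 198, 235 and 266 CPM in TFH cells, against 30.8, 30.4 and 38.2 CPM in Tconv cells (log2 fold change 2.81 ± 0.14 (SE), edgeR adjusted p = 1.7e-12), and Lag3, a receptor for MHC class II, at 37.2, 25.5 and 17.2 CPM in TFH cells, against 2.703, 2.14 and 2.47 CPM in Tconv cells (log2 fold change 3.44 ± 0.23 (SE), edgeR adjusted p = 2.4e-10). Havcr2, which encodes TIM-3, rose by 3.29 ± 0.50 (4.76 without Tconv 1 and 2), and Cd274, which encodes PD-L1, by 1.49 ± 0.16 on the log2 scale. Cd200 was at 73.2, 45.2 and 129 CPM in TFH cells, against 41.3, 40.5 and 4.41 CPM in Tconv cells (log2 fold change 1.54 ± 0.46 (SE), edgeR adjusted p = 0.019), and its difference was 4.24 without Tconv 1 and 2 (adjusted p = 6.0e-07).

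Among co-stimulatory receptors and TNF family members, 12 rose and 1 fell of 22 tested (list median 0.78); without Tconv 1 and 2, 8 rose and 1 fell. Tnfrsf9, which encodes the activation receptor 4-1BB, was at 222, 177 and 219 CPM in TFH cells, against 11.2, 13.3 and 13.3 CPM in Tconv cells (log2 fold change 4.03 ± 0.14 (SE), edgeR adjusted p = 3.3e-15). Tnfrsf4, which encodes OX40, the receptor of the ligand given to the treated mice, was at 158, 109 and 162 CPM in TFH cells, against 30.2, 24.6 and 27.7 CPM in Tconv cells (log2 fold change 2.39 ± 0.14 (SE), edgeR adjusted p = 3.6e-11). Tnfrsf1b, the second TNF receptor, rose by 1.37 ± 0.11. All 3 genes kept their call without Tconv 1 and 2.

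Sequence near the starts of higher genes was looked at for motifs of factors that act in activated T cells. The 250 bases before each RefSeq start (GRCm38.p6) were searched on both strands for TGANTCA (AP-1), TGGAAAA (NFAT) and CTTTGAA (TCF/LEF). Over 11935 tested genes with such a stretch, 5.67% held the AP-1 letters, 5.34% the NFAT letters and 4.01% the TCF/LEF letters. Of 597 genes higher both with and without Tconv 1 and 2, 8.54%, 5.19% and 4.02% held them in that order; of 752 genes lower in both, 5.19%, 3.46% and 3.99% did. Of 180 named genes 129 had such a stretch, and 22 held a match. Il21, Ctla4, Ptger2 and Tnfrsf9, receptors and a cytokine that were higher in TFH cells, are shown as examples; capitals mark the matched letters. They lie at chr3:37232637-37232886 (minus strand), chr1:60908775-60909024, chr14:44987861-44988110 and chr4:150927749-150927998 (plus strand), and are written 5′ to 3′ along the gene.
Il21: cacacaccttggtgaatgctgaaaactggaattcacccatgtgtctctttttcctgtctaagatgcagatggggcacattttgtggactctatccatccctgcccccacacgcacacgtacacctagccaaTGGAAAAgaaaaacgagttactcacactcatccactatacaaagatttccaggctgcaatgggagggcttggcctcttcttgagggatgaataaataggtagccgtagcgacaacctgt
Ctla4: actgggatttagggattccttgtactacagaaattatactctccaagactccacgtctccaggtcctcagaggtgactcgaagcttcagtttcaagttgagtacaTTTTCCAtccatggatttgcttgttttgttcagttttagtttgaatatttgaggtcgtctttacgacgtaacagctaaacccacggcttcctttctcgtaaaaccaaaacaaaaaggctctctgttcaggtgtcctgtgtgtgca
Ptger2: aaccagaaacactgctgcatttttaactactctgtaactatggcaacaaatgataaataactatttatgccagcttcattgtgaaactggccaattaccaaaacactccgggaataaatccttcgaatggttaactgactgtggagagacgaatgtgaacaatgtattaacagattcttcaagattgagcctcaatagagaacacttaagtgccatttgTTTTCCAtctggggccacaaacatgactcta
Tnfrsf9: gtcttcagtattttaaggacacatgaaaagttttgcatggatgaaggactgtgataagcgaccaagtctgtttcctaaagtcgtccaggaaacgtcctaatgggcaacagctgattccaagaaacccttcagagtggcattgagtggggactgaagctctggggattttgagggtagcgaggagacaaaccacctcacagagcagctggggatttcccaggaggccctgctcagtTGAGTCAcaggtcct
The NFAT letters begin 119 bases before the start of Il21. On the opposite strand they lie 145 bases before a RefSeq start of Ctla4 that is inside the gene span given above. They lie 31 bases before the start of Ptger2, also on the opposite strand. The AP-1 letters begin 15 bases before one of the annotated starts of Tnfrsf9. A match describes the letters only, not binding. Ptger2, the prostaglandin E2 receptor EP2, was at 86.7, 124 and 129 CPM in TFH cells, against 3.42, 3.71 and 3.23 CPM in Tconv cells (log2 fold change 5.04 ± 0.17 (SE), edgeR adjusted p = 2.8e-15).

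Genes of naive and resting T cells were lower almost throughout: of 25 tested, 22 fell and 0 rose (list median -1.76); without Tconv 1 and 2, 21 fell and 0 rose. Il7r (ENSMUSG00000003882.4, chromosome 15, 9505788 to 9530176), the receptor of the survival cytokine IL-7, was at 59.98, 78.8 and 95.1 CPM in TFH cells, against 504, 524 and 653 CPM in Tconv cells (log2 fold change -2.84 ± 0.17 (SE), edgeR adjusted p = 6.5e-11). Satb1 (ENSMUSG00000023927.15, chromosome 17, 51736187 to 51833290), which folds chromatin in thymocytes and T cells, was at 269.8, 242 and 238 CPM in TFH cells, against 1966, 1968 and 2482 CPM in Tconv cells (log2 fold change -3.097 ± 0.10 (SE), edgeR adjusted p = 1.5e-15). Tconv 3, which lacked kidney RNA, had the highest level of both. Igfbp4 (ENSMUSG00000017493.12, chromosome 11, 99041244 to 99054392), an insulin-like growth factor binding protein, had no read in any TFH library and 80.6, 72.4 and 98.2 CPM in Tconv cells. Against the floor of 3 counts over the TFH group, that is at least 643-fold lower (edgeR adjusted p = 2.5e-11).

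Other members of the naive list kept the same order of groups. Actn1, an actin cross-linker, was at 98.9, 107 and 110.3 CPM in TFH cells, against 369.7, 336 and 364 CPM in Tconv cells (log2 fold change -1.76 ± 0.12 (SE), edgeR adjusted p = 2.3e-10). Dapl1 and Treml2 were near 0 in TFH cells, with 0, 0 and 0.204 CPM and 0.869, 0 and 0.613 CPM, against 13.1, 13.6 and 10.997 CPM and 22.9, 23.5 and 27.95 CPM in Tconv cells. Bach2, which restrains effector genes, fell by 0.94 and Foxp1 by 0.49 on the log2 scale. Foxo1, which sustains Il7r and Klf2, was at 387, 301 and 471 CPM in TFH cells, against 418, 409 and 521 CPM in Tconv cells and did not pass the test (adjusted p = 0.17).

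Homing receptors split between both directions, with 11 rose and 9 fell of 24 tested (list median 0.76); without Tconv 1 and 2, 7 rose and 7 fell. Among those that fell were receptors that guide T cells into and out of the T cell zone. Ccr7 (ENSMUSG00000037944.8, chromosome 11, 99144196 to 99155077), which holds T cells in that zone, was at 259.7, 287 and 272 CPM in TFH cells, against 1127, 1088 and 1439.96 CPM in Tconv cells (log2 fold change -2.16 ± 0.11 (SE), edgeR adjusted p = 2.3e-12). S1pr1, the receptor for leaving lymph nodes, was at 361, 408 and 363 CPM in TFH cells, against 802, 857 and 1063 CPM in Tconv cells (log2 fold change -1.27 ± 0.12 (SE), edgeR adjusted p = 5.2e-08). Its activator Klf2 was at 51.8, 47.9 and 67.5 CPM in TFH cells, against 272, 274 and 324 CPM in Tconv cells (log2 fold change -2.36 ± 0.13 (SE), edgeR adjusted p = 1.4e-11). Selplg, which encodes the selectin ligand PSGL-1, was at 65.9, 111 and 59.7 CPM in TFH cells, against 187, 203 and 226 CPM in Tconv cells (log2 fold change -1.41 ± 0.17 (SE), edgeR adjusted p = 1.7e-06), and Itga6, a laminin-binding integrin chain, fell by 1.21 on the log2 scale.

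Of the receptors that rose, 4 are described here. Cxcr3, a receptor of interferon-induced chemokines, was at 70.4, 86.9 and 72.7 CPM in TFH cells, against 4.13, 5.25 and 5.32 CPM in Tconv cells (log2 fold change 3.96 ± 0.14 (SE), edgeR adjusted p = 4.0e-15). Cxcr4, which draws germinal centre cells to the dark zone, was at 411, 586 and 483 CPM in TFH cells, against 191, 208 and 266 CPM in Tconv cells (log2 fold change 1.15 ± 0.12 (SE), edgeR adjusted p = 1.6e-07). Itgal, a chain of LFA-1, rose by 1.501 ± 0.10 and Itga4 by 0.999 ± 0.11. Gpr183, a receptor that positions cells outside the follicle centre, was at 162, 31.3 and 128 CPM in TFH cells, against 101.5, 88.6 and 127 CPM in Tconv cells and its groups overlap (adjusted p = 0.93).

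**Figure D3:**
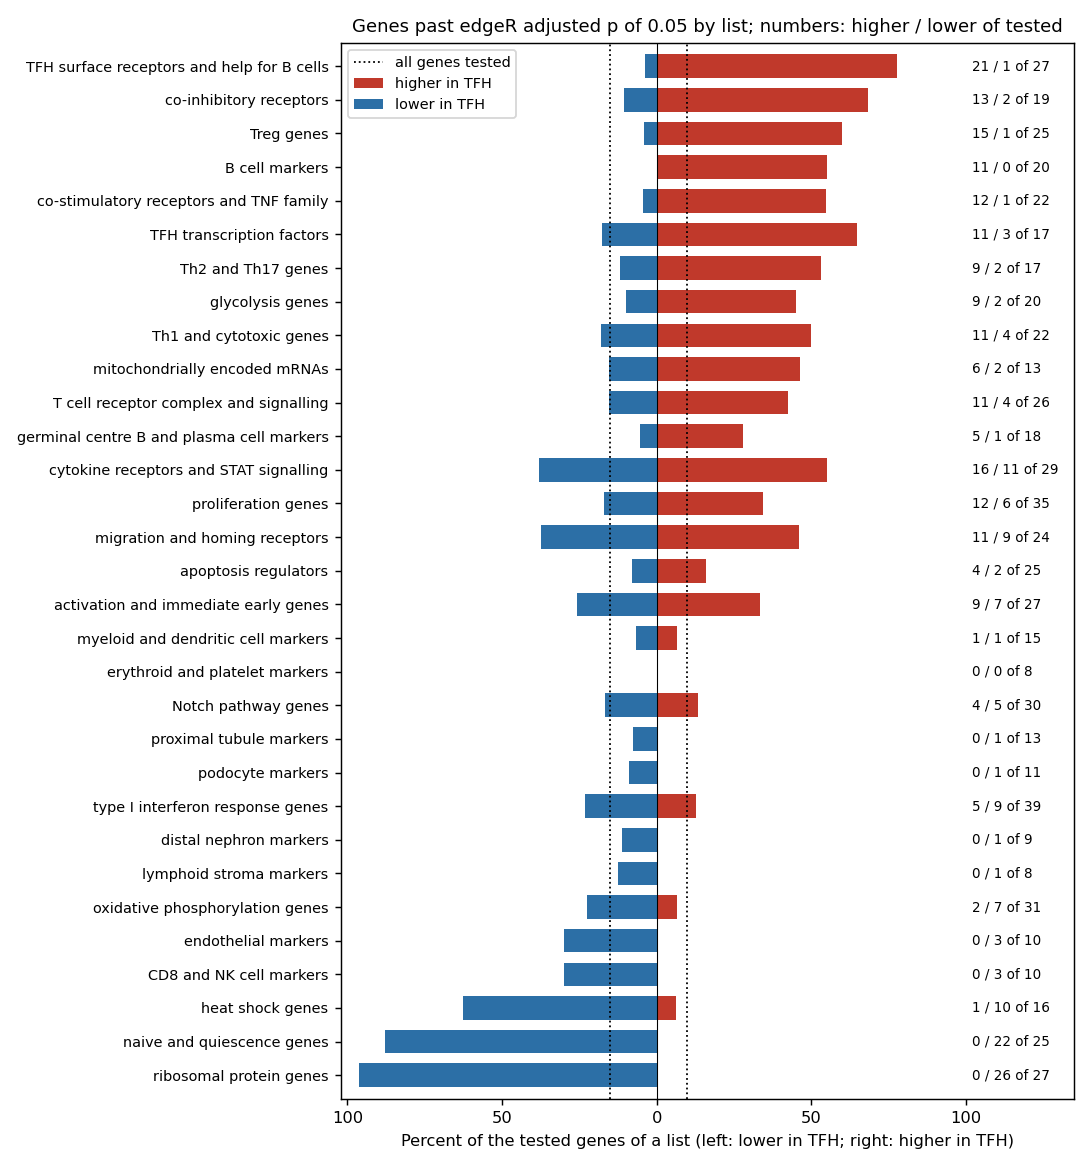
Bars give, for each gene list, the percent of tested members called higher (right) or lower (left) in TFH than in Tconv cells at an adjusted p under 0.05, with the counts beside them and the share of all tested genes as dotted lines. Ribosomal protein and naive genes have the longest bars on the lower side, and TFH receptors the longest on the higher side.

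Of 29 cytokine receptor and STAT genes, 16 rose and 11 fell (list median 0.52); without Tconv 1 and 2, 9 rose and 11 fell. Receptors of IL-2 rose: Il2rb was at 309, 213 and 290.3 CPM in TFH cells, against 17.4, 20.4 and 21.5 CPM in Tconv cells (log2 fold change 3.78 ± 0.14 (SE), edgeR adjusted p = 6.3e-15). Il2ra was at 31.5, 28.6 and 53.5 CPM in TFH cells, against 9.22, 8.67 and 10.7 CPM in Tconv cells (log2 fold change 2.02 ± 0.19 (SE), edgeR adjusted p = 3.8e-08). Receptor chains for IL-4 and interferon gamma fell beside Il7r. Il4ra was at 140.5, 101.999 and 99.5 CPM in TFH cells, against 461, 468 and 597 CPM in Tconv cells (log2 fold change -2.16 ± 0.16 (SE), edgeR adjusted p = 1.9e-09). Ifngr2 was at 12.7, 26.3 and 15.4 CPM in TFH cells, against 113, 117 and 149.7 CPM in Tconv cells (log2 fold change -2.84 ± 0.34 (SE), edgeR adjusted p = 1.7e-06), and Ifngr1 fell by 1.41 on the log2 scale. Of the kinases, Jak2 was at 1097, 1084 and 1059 CPM in TFH cells, against 276, 277 and 346 CPM in Tconv cells (log2 fold change 1.85 ± 0.09 (SE), edgeR adjusted p = 1.7e-12), and Jak3 rose by 1.65 ± 0.12; exons of Jak3 overlap another gene.

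Genes of other helper lineages were not absent from the TFH libraries. Of 22 Th1 and cytotoxic genes, 11 rose and 4 fell (list median 0.99); without Tconv 1 and 2, 8 rose and 0 fell. Ifng, the Th1 cytokine, was at 29.9, 28.6 and 26.96 CPM in TFH cells, against 1.23, 1.78 and 3.296 CPM in Tconv cells (log2 fold change 3.74 ± 0.27 (SE), edgeR adjusted p = 1.0e-09; 3.102 without Tconv 1 and 2). Tbx21, which encodes T-bet, was at 6.08, 35.9 and 19.7 CPM in TFH cells, against 1.55, 1.43 and 0.951 CPM in Tconv cells (log2 fold change 3.96 ± 0.63 (SE), edgeR adjusted p = 7.9e-05; 3.301 without TFH 2), and Eomes at 38.9, 46.7 and 38.3 CPM in TFH cells, against 7.63, 7.89 and 9.16 CPM in Tconv cells (log2 fold change 2.32 ± 0.29 (SE), edgeR adjusted p = 3.6e-06). Groups did not overlap for any of these 3 genes. Stat4, which carries IL-12 signals, was at 225, 117 and 279 CPM in TFH cells, against 69.7, 73.7 and 80.2 CPM in Tconv cells (log2 fold change 1.49 ± 0.18 (SE), edgeR adjusted p = 2.8e-06). Il12rb1, a chain of the IL-12 receptor, rose by 3.68 ± 0.49 (2.75 without TFH 2); exons of Ifng overlap another gene.

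Of 17 Th2 and Th17 genes, 9 rose and 2 fell (list median 2.01, and 2.64 with genes absent from a group at their bound); without Tconv 1 and 2, 7 rose and 1 fell. Il10, an anti-inflammatory cytokine placed in this list, was at 79.4, 54.1 and 34.04 CPM in TFH cells, against 2.19, 2.25 and 1.33 CPM in Tconv cells (log2 fold change 4.86 ± 0.28 (SE), edgeR adjusted p = 1.9e-11). Rora, a nuclear receptor of Th17 and tissue T cells, was at 826, 1022 and 874 CPM in TFH cells, against 115, 125 and 134 CPM in Tconv cells (log2 fold change 2.86 ± 0.09 (SE), edgeR adjusted p = 1.4e-15). Nfil3, a basic leucine zipper factor, was at 194, 202 and 203 CPM in TFH cells, against 24.5, 24.5 and 35.9 CPM in Tconv cells (log2 fold change 2.82 ± 0.13 (SE), edgeR adjusted p = 3.4e-13). Gata3, the Th2 factor, rose by 0.78 ± 0.14.

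Of 25 genes of regulatory T cells, 15 rose and 1 fell (list median 1.96); without Tconv 1 and 2, 15 rose and 0 fell. Their summed level was 2180.1, 1852 and 2176 CPM in TFH cells, against 507, 507 and 379 CPM in Tconv cells. Foxp3, the lineage factor of regulatory T cells, was at 67.3, 29.7 and 44.9 CPM in TFH cells, against 6.797, 6.32 and 4.31 CPM in Tconv cells (log2 fold change 3.06 ± 0.21 (SE), edgeR adjusted p = 5.3e-10), with exons that overlap other genes. Ikzf2, which encodes Helios, was at 391.8, 342 and 402 CPM in TFH cells, against 20.2, 19.7 and 13.3 CPM in Tconv cells (log2 fold change 4.42 ± 0.13 (SE), edgeR adjusted p = 4.9e-16). Lrrc32, which encodes the TGF-beta docking receptor GARP, was at 43.1, 104 and 58.7 CPM in TFH cells, against 3.896, 5.17 and 1.01 CPM in Tconv cells (log2 fold change 4.33 ± 0.37 (SE), edgeR adjusted p = 1.3e-08; 6.04 without Tconv 1 and 2). The TFH gate reached into low GITR, next to the gate of follicular regulatory cells, and the part of such cells in these values was not tested. Ctla4, Tnfrsf4, Tnfrsf9, Il2rb and Il10, described above, are shared with this list. Prdm1, the antagonist of Bcl6, was at 7.65, 17.8 and 19.2 CPM in TFH cells, against 15.9, 14.95 and 9.73 CPM in Tconv cells and did not pass the test (adjusted p = 0.70).

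Markers of B cells also moved with the groups. Of 20 tested, 11 rose and 0 fell (list median 2.99); without Tconv 1 and 2, 3 rose and 0 fell. Summed over 21 markers, the level was 316, 263 and 353 CPM in TFH cells and 146, 142 and 117 CPM in Tconv cells, and 1 marker had no read in the TFH libraries. Cd79b, a chain of the B cell receptor, was at 19.5, 20.1 and 6.33 CPM in TFH cells, against 0.517, 0.2498 and 1.204 CPM in Tconv cells (log2 fold change 4.52 ± 1.001 (SE), edgeR adjusted p = 0.0023; 3.65 without Tconv 1 and 2 (adjusted p = 0.16)). Cd74, the invariant chain of MHC class II, was at 56.8, 82.7 and 98.9 CPM in TFH cells, against 25.7, 23.4 and 17.6 CPM in Tconv cells (log2 fold change 1.84 ± 0.17 (SE), edgeR adjusted p = 2.7e-08). The MHC class II genes H2-Eb1 and H2-Ab1 were at 17.04, 10.8 and 27.6 CPM and 22.3, 13.5 and 23.4 CPM in TFH cells, against 2.74, 3.03 and 0.824 CPM and 2.86, 1.82 and 3.07 CPM in Tconv cells (adjusted p = 7.6e-05 and 0.00036, and 0.00047 and 0.057 without Tconv 1 and 2). The part of B cell RNA in the genes above was not tested.

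Over 20 germinal centre B and plasma cell markers, some of which T cells share, the sums were 961, 870.5 and 1096 CPM in TFH cells and 409.9, 418 and 483 CPM in Tconv cells. Of 18 tested, 5 rose and 1 fell (list median 0.45, or 0.59 with genes absent from a group at their bound); without Tconv 1 and 2, 4 rose and 1 fell. Ighm, the IgM heavy chain, was at 255, 277 and 329.7 CPM in TFH cells, against 79.7, 85.03 and 91.1 CPM in Tconv cells (log2 fold change 1.75 ± 0.12 (SE), edgeR adjusted p = 2.1e-10), and Igkc, the kappa light chain, at 115, 66.8 and 122.5 CPM in TFH cells, against 20.3, 19.4 and 24.6 CPM in Tconv cells (log2 fold change 2.26 ± 0.16 (SE), edgeR adjusted p = 5.9e-10). Markers of CD8 T and NK cells ran the other way, at 22.4, 8.4999 and 15.1 CPM in TFH cells and 39.8, 41.1 and 53.8 CPM in Tconv cells, where of 10 tested 0 rose and 3 fell, and without Tconv 1 and 2 0 rose and 1 fell. Cd8b1, a CD8 chain, was at 0, 0 and 0.0681 CPM in TFH cells, against 6.36, 6.82 and 10.6 CPM in Tconv cells (log2 fold change -7.48 ± 1.097 (SE), edgeR adjusted p = 2.9e-05). The cytotoxic genes Gzmb and Prf1 were at 0, 0 and 0 CPM and 2.43, 3.48 and 0 CPM in TFH cells, against 1.03, 1.78 and 0.158 CPM and 15.2, 13.7 and 17.9 CPM in Tconv cells (adjusted p = 0.0068 and 0.034, and 0.23 and 0.088 without Tconv 1 and 2). Of 15 myeloid and dendritic cell markers 1 rose and 1 fell (Xcr1 and Cst3, neither called without Tconv 1 and 2), and of 8 erythroid and platelet markers 0 rose and 0 fell.

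Kidney, vessel and stroma markers separated Tconv 1 and 2 from Tconv 3 rather than TFH from Tconv cells. Nphs1, the podocyte gene for nephrin, had no read in any TFH library and 156, 163 and 0.158 CPM in Tconv cells (adjusted p = 0.056). Of 11 podocyte, 13 proximal tubule and 9 distal nephron markers, 1, 1 and 1 fell and 0 rose in each list. Of 10 endothelial and 8 lymphoid stroma markers, 3 and 1 fell. They were Cdkn1c, Cubn, Slc12a3, Ehd3, Egfl7, Flt1 and Col1a1, and none of these 7 passed the test without Tconv 1 and 2. Without Tconv 1 and 2, no member of these 5 lists rose.

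**Figure D4:**
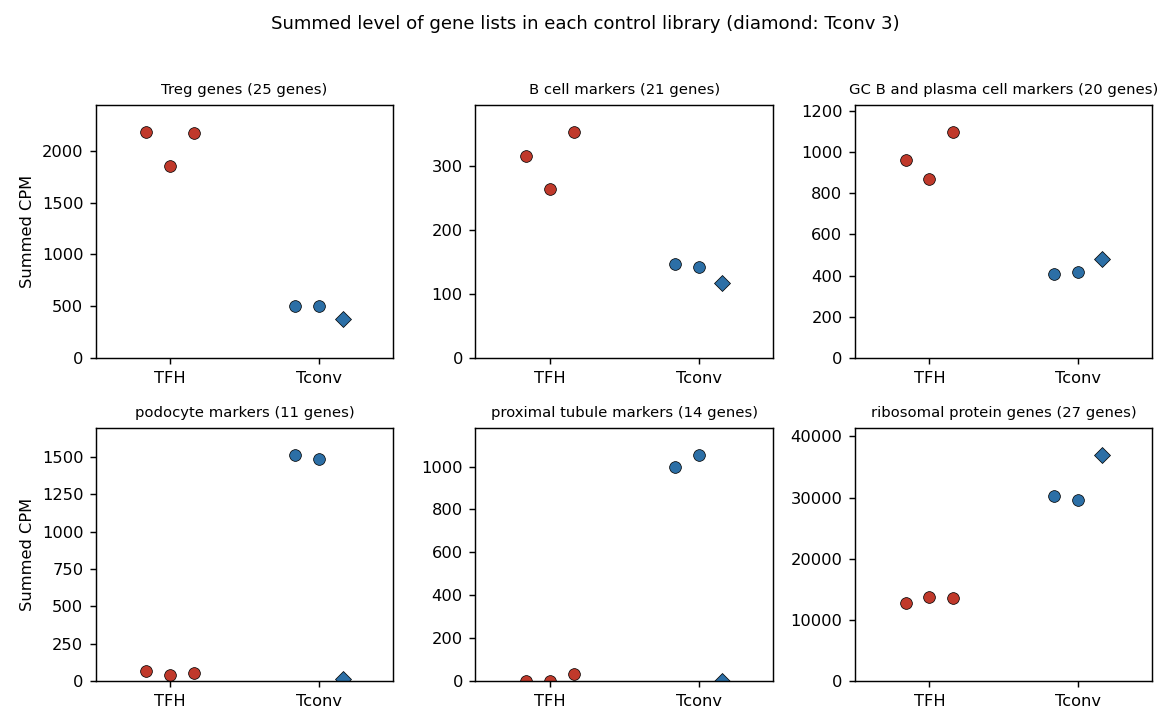
Summed CPM of 6 gene lists in each library on linear axes from 0, TFH libraries left of Tconv libraries, with Tconv 3 as a diamond. Regulatory T cell and B cell marker sums are higher in all TFH libraries, and podocyte and proximal tubule sums are high in Tconv 1 and 2 alone.

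Of 26 T cell receptor complex and signalling genes, 11 rose and 4 fell (list median 0.23); without Tconv 1 and 2, 6 rose and 3 fell. Their sums differed less than those of the lists above, with 9793, 9735 and 9893 CPM in TFH cells and 7775, 7755 and 9548 CPM in Tconv cells. Malt1, a protease and scaffold on the way to NF-kappa B, was at 321, 329 and 366 CPM in TFH cells, against 101.2, 109 and 122.8 CPM in Tconv cells (log2 fold change 1.61 ± 0.12 (SE), edgeR adjusted p = 1.9e-09). Fyn, a Src family kinase, was at 699.5, 806 and 738 CPM in TFH cells, against 321, 317 and 351 CPM in Tconv cells (log2 fold change 1.18 ± 0.09 (SE), edgeR adjusted p = 1.3e-09). Plcg1, the phospholipase that starts calcium signals, was at 471, 422 and 423 CPM in TFH cells, against 296, 274 and 271 CPM in Tconv cells (log2 fold change 0.64 ± 0.08 (SE), edgeR adjusted p = 2.8e-06). Zap70, the kinase bound to the receptor, rose by 0.85 ± 0.11, while the adaptor Trat1 fell by 1.52 on the log2 scale.

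Activation and immediate early genes moved in both directions: of 27 tested, 9 rose and 7 fell (list median 0.03); without Tconv 1 and 2, 4 rose and 7 fell. Rgs1, a brake on chemokine signals, was at 304, 476 and 348 CPM in TFH cells, against 88.01, 88.4 and 103 CPM in Tconv cells (log2 fold change 2.01 ± 0.13 (SE), edgeR adjusted p = 9.4e-11). Nfkbiz, a nuclear partner of NF-kappa B, was at 409.9, 269.7 and 327 CPM in TFH cells, against 158, 145 and 179.6 CPM in Tconv cells (log2 fold change 1.06 ± 0.12 (SE), edgeR adjusted p = 4.9e-07). Nr4a2, a nuclear receptor induced by T cell receptor signals, rose by 1.51 ± 0.16, whereas its relative Nr4a1 was at 94.7, 109 and 73.7 CPM in TFH cells, against 155, 169.8 and 204 CPM in Tconv cells (log2 fold change -0.95 ± 0.15 (SE), edgeR adjusted p = 7.5e-05). Jun, Klf6 and Myc fell by 0.64, 0.77 and 0.96 on the log2 scale. These 3 and Nr4a1 did not pass limma voom with quality weights, where their adjusted p was 0.39, 0.086, 0.12 and 0.089 in that order.

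Ribosomal protein genes fell together: of 27 listed and tested, 26 fell and 0 rose, both with all libraries and without Tconv 1 and 2 (list median -1.22). Their summed level was 12812, 13783 and 13638 CPM in TFH cells and 30211, 29579 and 36988 CPM in Tconv cells. Rplp1 (ENSMUSG00000007892.8, chromosome 9, 61913284 to 61914542), of the ribosomal stalk, was at 579, 597 and 625 CPM in TFH cells, against 2145, 2129.6 and 2730.4 CPM in Tconv cells (log2 fold change -1.96 ± 0.10 (SE), edgeR adjusted p = 3.2e-12). Rps24 was at 689, 696 and 721 CPM in TFH cells, against 2066, 2046 and 2472 CPM in Tconv cells (log2 fold change -1.64 ± 0.09 (SE), edgeR adjusted p = 1.8e-11), and Rps14 at 233, 262 and 238 CPM in TFH cells, against 686, 725 and 876 CPM in Tconv cells (log2 fold change -1.64 ± 0.08 (SE), edgeR adjusted p = 1.9e-12). The groups are far apart for all 3, and the spread within a group is small. Rpl5, whose exons overlap other genes, fell by 1.46 on the log2 scale. Eef1a1, an elongation factor of translation, was at 5193, 5033 and 5064 CPM in TFH cells, against 8991, 8907 and 11061 CPM in Tconv cells (log2 fold change -0.92 ± 0.09 (SE), edgeR adjusted p = 4.2e-08).

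Of 16 heat shock genes, 1 rose and 10 fell (list median -0.51); without Tconv 1 and 2, 0 rose and 7 fell. Hspa8, a constitutive chaperone, was at 588, 681 and 654 CPM in TFH cells, against 1254, 1252 and 1388 CPM in Tconv cells (log2 fold change -1.02 ± 0.09 (SE), edgeR adjusted p = 1.3e-08), and Hsp90aa1 at 531, 601 and 567 CPM in TFH cells, against 864, 913 and 1028 CPM in Tconv cells (log2 fold change -0.72 ± 0.09 (SE), edgeR adjusted p = 3.7e-06). Hspa1b, an inducible chaperone, was at 215, 219 and 263 CPM in TFH cells, against 452, 445 and 540.5 CPM in Tconv cells (log2 fold change -1.04 ± 0.12 (SE), edgeR adjusted p = 8.9e-07). In limma voom with quality weights the adjusted p was 0.12 for Hspa8, 0.16 for Hsp90aa1 and 0.29 for Hspa1b.

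Glycolysis genes showed 9 rises and 2 falls among 20 tested (list median 0.39); without Tconv 1 and 2, 4 rose and 1 fell. Hif1a (ENSMUSG00000021109.13, chromosome 12, 73901375 to 73947530), the oxygen-sensitive activator of glycolysis genes, was at 1792, 2036 and 1981 CPM in TFH cells, against 304, 322 and 362 CPM in Tconv cells (log2 fold change 2.56 ± 0.10 (SE), edgeR adjusted p = 1.1e-14). Slc16a3, a lactate exporter, was at 27.8, 23.95 and 18.2 CPM in TFH cells, against 2.35, 2.39 and 2.15 CPM in Tconv cells (log2 fold change 3.34 ± 0.29 (SE), edgeR adjusted p = 1.9e-08). Hk2, the first enzyme of the pathway, was at 22.9, 19.7 and 10.9 CPM in TFH cells, against 4.73, 3.75 and 5.01 CPM in Tconv cells (log2 fold change 1.98 ± 0.27 (SE), edgeR adjusted p = 1.4e-05). Ldha, which makes lactate, fell instead, with 116, 96.98 and 140.4 CPM in TFH cells, against 177, 184 and 227 CPM in Tconv cells (log2 fold change -0.72 ± 0.12 (SE), edgeR adjusted p = 8.8e-05; limma voom adjusted p = 0.32).

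Of 31 nuclear genes of oxidative phosphorylation, 2 rose and 7 fell (list median -0.28); without Tconv 1 and 2, 0 rose and 5 fell. Uqcrh, of respiratory complex III, was at 58.6, 50.2 and 76.3 CPM in TFH cells, against 104, 103 and 119.7 CPM in Tconv cells (log2 fold change -0.80 ± 0.14 (SE), edgeR adjusted p = 0.00023) and Atp5b, of ATP synthase, at 352, 405 and 370.1 CPM in TFH cells, against 469, 468 and 484 CPM in Tconv cells (log2 fold change -0.34 ± 0.06 (SE), edgeR adjusted p = 0.00055). Atp5d, another subunit of ATP synthase, was at 117, 95.4 and 78.97 CPM in TFH cells, against 60.3, 54.1 and 71.1 CPM in Tconv cells (log2 fold change 0.65 ± 0.14 (SE), edgeR adjusted p = 0.0014; 0.44 without Tconv 1 and 2 (adjusted p = 0.17)). Among 13 mitochondrially encoded mRNAs, 6 rose and 2 fell; without Tconv 1 and 2, 3 rose and 0 fell. The mRNA mt-Nd4, of complex I, was at 16066, 14952 and 15809.8 CPM in TFH cells, against 7378, 7683 and 8969 CPM in Tconv cells (log2 fold change 0.96 ± 0.10 (SE), edgeR adjusted p = 1.3e-07). The mRNA mt-Cytb, of complex III, was at 36820.2, 34066 and 38617 CPM in TFH cells, against 20035, 20009.5 and 24046 CPM in Tconv cells (log2 fold change 0.77 ± 0.09 (SE), edgeR adjusted p = 1.1e-06). The mRNA mt-Nd5, also of complex I, had a log2 fold change of 0.64 ± 0.10. The mitochondrial share of reads, higher in TFH libraries, moves with these values, and its part was not tested.

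Of 35 proliferation genes, 12 rose and 6 fell (list median 0.68, and 0.56 without Tconv 1 and 2). In the 6 libraries fitted alone, 3 rose and 1 fell. Mki67, a marker of cycling cells, was at 103, 115 and 89.9 CPM in TFH cells, against 12.1, 14.7 and 2.82 CPM in Tconv cells (log2 fold change 3.38 ± 0.35 (SE), edgeR adjusted p = 2.5e-07; 5.17 without Tconv 1 and 2). Top2a, a topoisomerase of dividing cells, was at 55.5, 66.1 and 52.9 CPM in TFH cells, against 14.9, 15.2 and 15.6 CPM in Tconv cells (log2 fold change 1.92 ± 0.10 (SE), edgeR adjusted p = 2.8e-12), and Mcm6, of the replicative helicase, at 377, 279 and 280.5 CPM in TFH cells, against 105, 99.3 and 132 CPM in Tconv cells (log2 fold change 1.48 ± 0.13 (SE), edgeR adjusted p = 1.2e-08). Cdkn1b, which encodes the cell cycle inhibitor p27, fell by 0.61 on the log2 scale.

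Apoptosis regulators mostly did not pass the test, with 4 rose and 2 fell of 25 (list median -0.08, and -0.04 without Tconv 1 and 2). Over all genes 9.89% rose and 15.1% fell. Pmaip1, which encodes the pro-apoptotic NOXA, was at 45.5, 80.4 and 65.4 CPM in TFH cells, against 3.18, 2.82 and 1.93 CPM in Tconv cells (log2 fold change 4.59 ± 0.22 (SE), edgeR adjusted p = 1.4e-12). Bcl2l11, which encodes pro-apoptotic BIM, was at 104, 56.4 and 81.2 CPM in TFH cells, against 186, 201 and 259 CPM in Tconv cells (log2 fold change -1.41 ± 0.18 (SE), edgeR adjusted p = 4.8e-06). Groups did not overlap for either gene.

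Of 39 type I interferon response genes, 5 rose and 9 fell (list median -0.22, and -0.39 without Tconv 1 and 2). Over all genes 9.89% rose and 15.1% fell, with medians of -0.31 and -0.05. In the 6 libraries fitted alone, 0 of the 39 rose and 2 fell. Ifit2, an antiviral RNA-binding protein, was at 1.56, 5.02 and 14.6 CPM in TFH cells, against 45.9, 46.1 and 53.7 CPM in Tconv cells (log2 fold change -2.68 ± 0.48 (SE), edgeR adjusted p = 0.00032; -4.04 without TFH 3). Slfn1, of the Schlafen family tied to T cell quiescence in mice, was at 27.99, 38.6 and 77.95 CPM in TFH cells, against 174, 176 and 237 CPM in Tconv cells (log2 fold change -1.99 ± 0.28 (SE), edgeR adjusted p = 1.5e-05). Slfn8, of the same family, was at 33.9, 27.05 and 27.03 CPM in TFH cells, against 70.6, 78.9 and 88.3 CPM in Tconv cells (log2 fold change -1.43 ± 0.18 (SE), edgeR adjusted p = 3.5e-06). Mx1, an antiviral GTPase, ran the other way with 22.3, 13.9 and 7.97 CPM in TFH cells, against 1.51, 2.43 and 1.204 CPM in Tconv cells (log2 fold change 3.095 ± 0.49 (SE), edgeR adjusted p = 7.8e-05). Of 30 Notch pathway genes, 4 rose and 5 fell; without Tconv 1 and 2, 4 rose and 1 fell. With all libraries, the shares of this Notch list were near those over all genes. Rbpj, the DNA-binding partner of Notch, was at 117, 111 and 113 CPM in TFH cells, against 49.3, 48.2 and 52.7 CPM in Tconv cells (log2 fold change 1.18 ± 0.11 (SE), edgeR adjusted p = 5.2e-08). Dtx3, of the Deltex ubiquitin ligases, rose by 2.16 ± 0.23, and Lfng, a sugar transferase that modifies Notch, fell by 1.395 on the log2 scale.

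The higher genes with the largest fold changes included few that are well known in TFH cells. Among the 14 that a fixed rule names, Tox2 and the sort gene Cxcr5 are the familiar ones. Gpr45, an orphan receptor, had 5.56, 5.795 and 7.97 CPM in TFH cells and no read in Tconv cells, at least 182-fold higher against the floor of 3 counts over the Tconv group. Hpcal4, a calcium sensor described in neurons, was at 15.99, 13.5 and 7.83 CPM in TFH cells, against 0.0795, 0.0714 and 0 CPM in Tconv cells (log2 fold change 7.87 ± 1.37 (SE), edgeR adjusted p = 0.00022). Padi4, which turns arginine in histones to citrulline, was at 65.02, 28.98 and 45.4 CPM in TFH cells, against 0.0398, 0.178 and 0.3803 CPM in Tconv cells (log2 fold change 7.81 ± 0.85 (SE), edgeR adjusted p = 4.6e-07; 6.91 without Tconv 1 and 2). Dnase1l3, a secreted nuclease whose loss leads to lupus-like disease in people and mice, was at 16.3, 89.2 and 40.5 CPM in TFH cells, against 0.557, 0.928 and 0.158 CPM in Tconv cells (log2 fold change 6.46 ± 0.62 (SE), edgeR adjusted p = 7.5e-08; 8.18 without Tconv 1 and 2 and 5.73 without TFH 2). These 4 genes had no overlap between groups and low levels in all Tconv libraries. The rule asks for no overlap and ranks by fold change, so these traits are no finding for any of its 14 genes. It also asks for a like-signed change of at least 1 without Tconv 1 and 2.

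The other 8 genes of that rule had levels of the same kind. Rian, a long non-coding RNA of an imprinted cluster, was at 22.4, 9.27 and 5.92 CPM in TFH cells, against 0.0398, 0.143 and 0 CPM in Tconv cells, and Vwde at 21.9, 39.02 and 14.5 CPM in TFH cells, against 0.358, 0.321 and 0 CPM in Tconv cells. Rph3a was at 0.695, 16.2 and 5.04 CPM in TFH cells, against 0.159, 0.107 and 0 CPM in Tconv cells, and Ttbk1, a kinase known from neurons, at 26.4, 26.7 and 12.7 CPM in TFH cells, against 0.239, 0.535 and 0.254 CPM in Tconv cells. Each was near 0 in Tconv cells. Sh3rf2 was at 14.3, 23.95 and 16.3 CPM in TFH cells, against 0.358, 0.428 and 0 CPM in Tconv cells, Hs6st3 at 14.6, 11.6 and 10.1 CPM in TFH cells, against 0.119, 0.357 and 0 CPM in Tconv cells, Mreg at 14.1, 8.4999 and 4.36 CPM in TFH cells, against 0.119, 0.143 and 0.0634 CPM in Tconv cells and Glt28d2, with exons that overlap another gene, at 13.4, 36.3 and 16.1 CPM in TFH cells, against 0.557, 0.0357 and 0 CPM in Tconv cells. The edgeR adjusted p of these 8 genes lay between 3.4e-09 and 0.0034. Of the 14 genes, 13 were also higher without Tconv 1 and 2, where Mreg missed the threshold (adjusted p = 0.11).

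Some abundant genes outside the lists, chosen after their values were seen, were as clearly apart. Stx11, a syntaxin of granule release, was at 344, 364 and 323 CPM in TFH cells, against 24.4, 22.3 and 22.6 CPM in Tconv cells (log2 fold change 3.89 ± 0.10 (SE), edgeR adjusted p = 4.4e-17). Plagl1, an imprinted zinc finger factor, was at 727, 758 and 608 CPM in TFH cells, against 41.3, 36.1 and 45.3 CPM in Tconv cells (log2 fold change 4.09 ± 0.12 (SE), edgeR adjusted p = 4.9e-16), and Slc22a15, of the organic ion carriers, at 296, 301 and 320.2 CPM in TFH cells, against 8.98, 13.02 and 8.52 CPM in Tconv cells (log2 fold change 4.91 ± 0.16 (SE), edgeR adjusted p = 2.1e-15). All 3 were abundant in TFH cells and low in Tconv cells. Dusp4, a phosphatase of MAP kinases, was at 309, 227 and 302 CPM in TFH cells, against 16.3, 15.1 and 17.5 CPM in Tconv cells (log2 fold change 4.104 ± 0.13 (SE), edgeR adjusted p = 1.1e-15), and Spock2, a matrix proteoglycan, at 164, 247 and 200.2 CPM in TFH cells, against 5.64, 9.38 and 2.63 CPM in Tconv cells (log2 fold change 5.11 ± 0.30 (SE), edgeR adjusted p = 3.6e-11; 6.26 without Tconv 1 and 2). On the lower side, St8sia6, a sialyltransferase, was at 27.3, 17.4 and 47.7 CPM in TFH cells, against 218, 223 and 269 CPM in Tconv cells (log2 fold change -2.88 ± 0.29 (SE), edgeR adjusted p = 1.6e-07). Tpt1, an abundant translation-controlled protein gene, was at 2081, 2196 and 2057 CPM in TFH cells, against 4693, 4508 and 5751 CPM in Tconv cells (log2 fold change -1.24 ± 0.10 (SE), edgeR adjusted p = 6.0e-09), and Snhg3, a host of small nucleolar RNAs whose exons overlap other genes, at 1.22, 8.4999 and 2.66 CPM in TFH cells, against 82.7, 82.2 and 70.8 CPM in Tconv cells (log2 fold change -4.55 ± 0.48 (SE), edgeR adjusted p = 2.8e-07; -5.21 without TFH 2).

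For lower genes the same rule named kidney transcripts: 13 of its 14 genes stood in Tconv 3 below 1/5 of their mean in Tconv 1 and 2. Plxna2, for example, was at 0, 0 and 0 CPM in TFH cells, against 134, 137 and 0.317 CPM in Tconv cells, and did not pass the test without Tconv 1 and 2 (adjusted p = 0.70). A stricter rule, chosen after these values were seen, asked for a call without Tconv 1 and 2 as well and at least 5 CPM in Tconv 3. Igfbp4 again led. Of the 14 genes it names, 12 had no read in any TFH library, and a ranking by fold change favours such genes. Sord, which oxidises sorbitol to fructose, had 0 reads in TFH cells and 10.6, 9.92 and 14.04 CPM in Tconv cells, at least 88.4-fold lower. Pik3r3, a regulatory subunit of PI3 kinase, had no TFH read and 9.54, 12.6 and 5.36 CPM in Tconv cells. Osm, the cytokine oncostatin M, was at 0.174, 0 and 0 CPM in TFH cells, against 10.5, 9.67 and 12.4 CPM in Tconv cells (log2 fold change -7.71 ± 0.72 (SE), edgeR adjusted p = 4.7e-08).

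Ly6c1, a surface marker of memory T cells, had no TFH read and 3.697, 5.28 and 6.12 CPM in Tconv cells, and Pole2, a DNA polymerase subunit, none and 6.24, 6.78 and 10.7 CPM. Adat1, Cyp2s1, Qpct, Rtl8b, Slc16a5 and Spef2 had no TFH read either and between 4.67 and 9.67 CPM in Tconv cells. At its mean Tconv level, Sord would have given 265 reads over the 3 TFH libraries. The TFH libraries were shallower and held fewer detected genes than the Tconv libraries, and the part of this in the zeros was not tested.

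Some genes were higher against Tconv 3 and not against all 3 Tconv libraries. There were 100 genes higher only without Tconv 1 and 2, and 91 of them stood in Tconv 3 below 1/2 of their mean in Tconv 1 and 2. Nrp1, a receptor found on regulatory T cells and in kidney, was at 60.7, 62.98 and 87.3 CPM in TFH cells, against 130.1, 123.2 and 7.07 CPM in Tconv cells, with a log2 fold change of -0.29 ± 0.54 and of 3.32 without Tconv 1 and 2 (adjusted p = 1.5e-05). Nfia was at 73.01, 28.2 and 72.8 CPM in TFH cells, against 33.4, 32.6 and 1.46 CPM in Tconv cells, with 1.38 ± 0.59 and 5.32 without Tconv 1 and 2 (adjusted p = 1.8e-06). Zeb2, a transcription factor of effector lymphocytes, was at 138, 249 and 129.6 CPM in TFH cells, against 119, 121 and 2.92 CPM in Tconv cells, with 1.08 ± 0.70 and 5.87 without Tconv 1 and 2 (adjusted p = 3.2e-05). Dst, a linker of the cytoskeleton, was at 397, 464 and 317 CPM in TFH cells, against 309.8, 307 and 33.5 CPM in Tconv cells, with 0.85 ± 0.43 and 3.54 without Tconv 1 and 2 (adjusted p = 3.1e-08). In all 4 genes Tconv 3 lay far below Tconv 1 and 2.

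The same comparison in mice given OX40L and JAG1 shares no library with the control one and was used to see which differences recur. There, 1944 genes were higher (10.3%) and 1460 lower (7.77%); without the 5 libraries of the series that hold kidney RNA, 1201 of 20151 were higher (5.96%) and 857 lower (4.25%). Of the 788 genes higher in control TFH cells both with and without Tconv 1 and 2, 549 (69.7%) were also higher in treated TFH cells in that smaller set. Of the 1273 lower genes, 417 (32.8%) were also lower. A test of the difference between both contrasts called 3683 genes (19.6%), and 277 (1.37%) without the 5 libraries. Control and treated libraries also differ in content: mitochondrial reads were 15.97 ± 0.921% of control TFH libraries and 2.75 ± 0.517% of treated TFH libraries, and heat shock genes summed to 4436, 4479 and 4609.9 CPM in control TFH cells and 15824, 16035 and 13827 CPM in treated TFH cells. The part of these in the difference was not tested.

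The lineage factors were higher in TFH cells of both control and treated mice. Bcl6 differed by 1.997 ± 0.12 in control mice and 2.14 ± 0.12 in treated mice on the log2 scale (adjusted p of the difference = 0.59). Tox2 differed by 6.32 ± 0.24 in control and 5.53 ± 0.23 in treated mice (adjusted p = 0.050), and Maf by 2.98 ± 0.26 in control and 3.29 ± 0.26 in treated mice (adjusted p = 0.55). A p above 0.05 does not show that the contrasts are alike. Dnase1l3 differed by 6.46 ± 0.62 in control and 5.801 ± 0.57 in treated mice, and Padi4 by 7.81 ± 0.85 in control and 6.35 ± 0.79 in treated mice. Of the 14 higher genes that the fixed rule names, 12 were also higher in treated mice. For 4 of the 14 the contrasts differed at an adjusted p under 0.05. Gpr45 and Mreg were not called in treated mice, with log2 fold changes of 2.17 and 1.73 there (edgeR adjusted p = 0.13 and 0.35).

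Several receptors and ligands stood further above Tconv cells in control than in treated mice. Tnfsf8 differed by 4.54 ± 0.13 in control and 1.26 ± 0.11 in treated mice, a gap of 3.29 (adjusted p = 4.5e-11, and 8.2e-09 without the 5 libraries). Nt5e differed by 4.36 ± 0.13 in control and 1.63 ± 0.11 in treated mice (adjusted p = 7.9e-10 and 2.1e-06). Ctla4 differed by 3.64 ± 0.10 in control and 1.86 ± 0.09 in treated mice (adjusted p = 1.2e-08 and 4.5e-06). Cd40lg was higher in control TFH cells and lower in treated TFH cells than in Tconv cells, with 0.77 ± 0.20 in control and -1.14 ± 0.20 in treated mice (adjusted p = 0.00016 and 0.045).

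Several of the genes with no read in control TFH cells were present in treated TFH cells. Sord was at 9.47, 10.1 and 9.46 CPM in treated TFH cells and 9.93, 10.3 and 10.1 CPM in treated Tconv cells. Rtl8b was at 3.71, 5.13 and 4.24 CPM in treated TFH cells and 4.71, 4.24 and 4.09 CPM in treated Tconv cells. Of the 14 lower genes of the stricter rule, 4 were also lower in treated mice. Igfbp4 and Ly6c1 were among those lower in both, with -4.38 ± 0.26 and -5.61 ± 1.505 in treated mice.

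**Figure D5:**
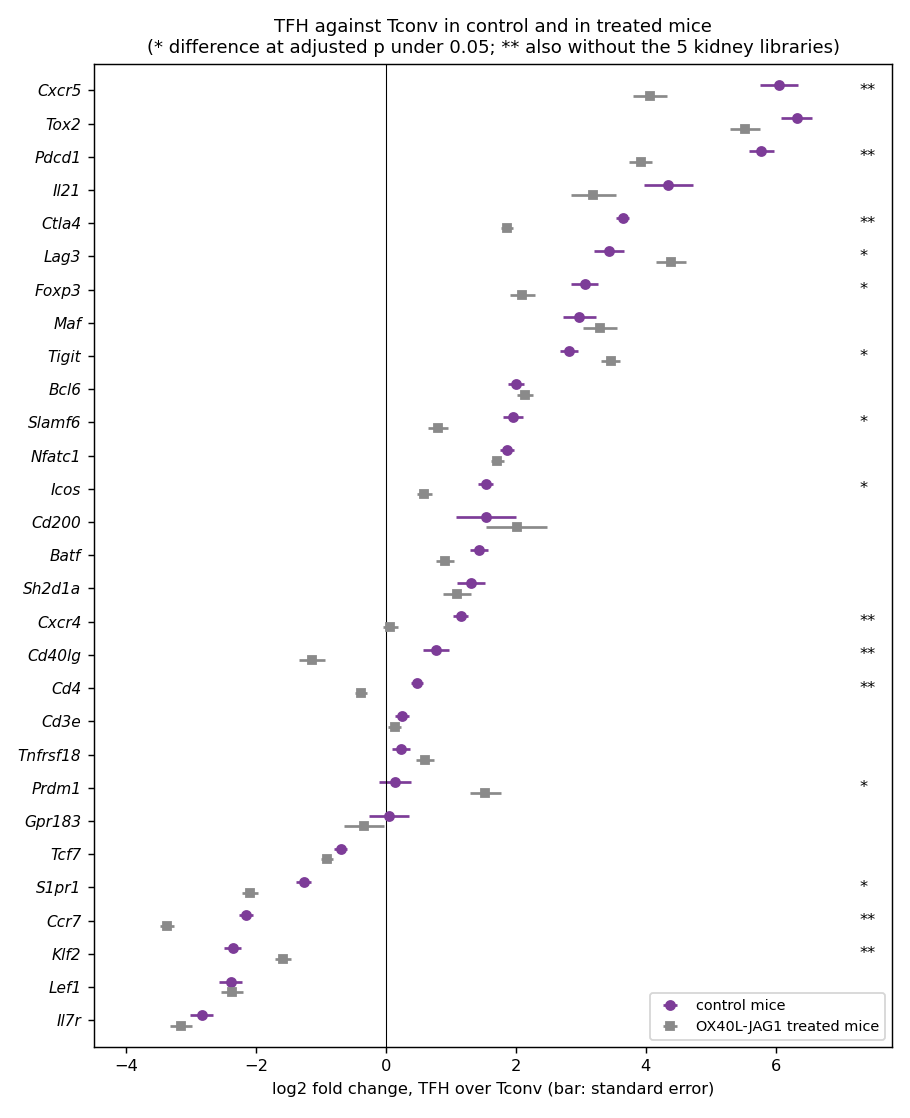
Log2 fold change of TFH over Tconv cells with its SE for 29 genes fixed by name, in control mice and in treated mice. One star marks a difference between both contrasts at an adjusted p under 0.05, and a pair of stars one that holds also without the 5 libraries with kidney RNA.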

How the data were processed

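RNA was isolated on RNeasy columns with DNase, depleted of ribosomal RNA with RiboCop and made into CORALL total RNA libraries, per the labels' protocols. The deposited table holds raw counts of reads for 39056 Ensembl genes, and the submitters' processing notes name STAR, featureCounts and mm10, with versions, strand setting and multi-mapping rule not given in the sources used here. Of the identifiers, 38872 matched GENCODE M21. All 24 libraries were fitted as 8 groups with edgeR 4.0.16 (R 4.3.3; TMM, filterByExpr, quasi-likelihood test, two-sided, Benjamini-Hochberg over 18789 genes), which leaves the smallest TFH library, at 2537901 reads, with the least precision. The scripts were tested on simulated data. The common biological coefficient of variation was 0.617. Estimated group by group it was 1.05 in control TFH libraries, the highest, and 0.638 in control Tconv libraries. The lowest was 0.075, in treated Tconv libraries. The test shares its estimate of spread over all groups, so its p-values may understate the spread among control TFH libraries. No library was merged, since each pair within each of the 8 groups differed beyond counting error (chi-square divided by its degrees of freedom at least 4.70). Deviations of same-numbered TFH and Tconv libraries from their group means had correlations of -0.03, -0.01 and -0.04. Kidney RNA is part of the Tconv deviations, so these values cannot show whether same-numbered libraries share a mouse.

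The genes named are, per direction, the 14 largest fold changes that pass the test without overlap, with at least 5 CPM and a like-signed change of at least 1 without Tconv 1 and 2, leaving out predicted genes and receptor segments; the 3 smallest p-values of each of 31 gene lists; and 32 genes fixed by name. Others were chosen after their values were seen, and a few that the rule names are not reported here. The members and lists were chosen with earlier results of these data known. Genes with exons overlapping another gene are named as such where they matter. Alternatives were DESeq2 1.42.0, limma 3.58.1 voom, other filters and normalizations, thinning, a replicate block and left-out libraries.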

Additional observations from a re-analysis of the deposited data

Results flagged for a closer look

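For 15 of 32 genes fixed by name, the TFH against Tconv difference itself differed between control and treated mice (edgeR test of the difference, adjusted p under 0.05), as for 3683 of all 18789 genes (19.6%); without the 5 libraries that hold kidney RNA 277 of 20151 did (1.37%). Values are log2 fold changes, control minus treated, with the adjusted p without these 5 libraries. Higher in the control contrast were Ctla4 by 1.78 (4.5e-06), Cxcr5 by 1.98 (0.00022), Pdcd1 by 1.86 (0.0026) and Cd40lg by 1.91 (0.045). Ccr7 differed by 1.21 (0.0032), Cxcr4 by 1.09 (0.040) and Cd4 by 0.86 (0.028). Klf2 differed by -0.78 (0.037). Cxcr5 and Pdcd1 were part of the sort, so their values are no finding. For these 8 genes the difference also passed without the 5 libraries.

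The other 7 passed only with all libraries. Icos differed by 0.95 (0.058), Slamf6 by 1.16 (0.12), S1pr1 by 0.82 (0.19) and Foxp3 by 0.96 (0.072). Prdm1 differed by -1.39 (0.40), Tigit by -0.65 (0.072) and Lag3 by -0.95 (0.31). Groups of 3 libraries were not tested for single outlying values.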

How the results depend on the processing

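Against 1858 higher genes, limma voom with quality weights gave 1017, the 6 libraries alone 608, leaving out Tconv 1 and 2 888, leaving out all 5 kidney libraries 768, and leaving out Tconv 1 and 2 with TFH 3 1066. Against 2843 lower genes, the counts were 788 in voom, 1039 in the 6 libraries, 1298 without Tconv 1 and 2, 953 without the 5 libraries, 1720 with libraries thinned to the smallest and 1333 at a minimum mean of 10 CPM. Against 3683 genes that differ between control and treated contrasts, the counts were 1810 in voom, 520, 277 and 1066 in the same 3 left-out sets, 1982 thinned and 1566 at 10 CPM; the 6 libraries give none. Leaving out each replicate gave 1346 to 2021 higher, 2117 to 3111 lower and 2062 to 4325 differing genes. With a replicate block 1666 genes were higher and 2627 lower, and whether the numbers pair the libraries is not known. The genes tested differ by fit, so the medians are not over the same genes. There were 18789 in the main fit and voom, 8567 at 10 CPM, 12536 thinned, 13850 in the 6 libraries and 21617 without Tconv 1 and 2. The median over the genes of each fit shifted by -0.17 in voom, 0.30 at 10 CPM, 0.25 thinned and 0.19 in the 6 libraries. Leaving out libraries shifted it by 0.31 without Tconv 1 and 2, 0.29 without the 5, 0.24 without Tconv 1 and 2 and TFH 3, -0.18 without TFH 1 and -0.33 without TFH 3. The cause was not tested.

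Of 180 named genes, 129 kept their call under every alternative run. Nrp1 reversed, at 3.32 without Tconv 1 and 2, 3.32 without the 5 libraries and 3.12 without Tconv 1 and 2 and TFH 3; in these 3 sets Flt1 and Slc12a3 had no read left in either group and a fitted change of 0.0. With voom, Cd4, Id3, Cd200, Foxp1, Gata3, Klf6, Myc, Nr4a1, Jun, Ldha, Eef1a1, Hspa8, Hsp90aa1, Hspa1b, Cdkn1b, Snhg3, Uqcrh, Atp5d and Gzmb lost their call, as did Plxna2, Cst3, Xcr1 and the kidney, vessel and stroma genes Cdkn1c, Cubn, Slc12a3, Ehd3, Egfl7, Flt1 and Col1a1 (29 in all). In the 6 libraries alone, Id3, Sh2d1a, Cd40lg, Cd200, Foxp1, Havcr2, Gata3, Hk2, Ifit2, Mx1, Atp5d, H2-Eb1, Prf1, Rph3a, Cdkn1c, Ehd3 and Col1a1 did (17 in all). Cd3e passed the test with RLE normalization, DESeq2, thinning, without TFH 2 and without Tconv 3. Il4 passed with DESeq2, without Tconv 2, without Tconv 1 and 2, and without these and TFH 3. Nphs1 passed with no filter, DESeq2, thinning and without Tconv 3, and Nrp1 without Tconv 3 (-0.84). Cd40lg lost its call without TFH 1 (0.48), Cd200 without TFH 3 (1.05), and Id3 without TFH 1, TFH 3, Tconv 1 or Tconv 2 (-0.89 to -0.76). Foxo1 passed without TFH 3 (-0.39), also with Tconv 1 and 2 left out (-0.60). Depth limits low genes most.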

Other observations

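Gene families chosen after their values were seen are given by their counts only, beside 9.89% higher and 15.1% lower over all genes. Of 84 ribosomal protein genes in all, 77 were lower and 0 higher (median log2 fold change -1.22), with summed levels of 26850.4, 27468 and 28199 CPM in TFH cells and 61984, 60711 and 74366 CPM in Tconv cells. Of 10 Eef elongation factor genes, 5 were lower and 0 higher. Of 77 mitochondrial ribosomal protein genes, 4 were lower and 2 higher. Of 7 Schlafen genes, 5 were lower and 0 higher (median -1.97).

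Of 61 Hist1, Hist2 and Hist3 genes, 21 were lower and 4 higher in control TFH cells (median -1.16), and 17 lower and 0 higher without Tconv 1 and 2; in treated mice without the kidney libraries 1 was lower and 15 higher. Of 18 RGS genes, 4 were higher and 3 lower. Of 21 dual specificity phosphatases, 4 were higher and 3 lower.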
